A study of Homo sapiens with 74 samples.

Results

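The muscleblind genes (MBNL1, MBNL2 and MBNL3) and the CELF genes CELF1, CELF2 and CELF6 encode RNA-binding regulators of splicing, 6 genes of the 28131 listed in each gene count table. They were taken by gene symbol from the RNA-seq tables of K562 and HEL, which are established lines of human erythroleukaemia. The set was proposed because CELF2 and MBNL3 were higher in K562 cells with knockout (KO) of DOT1L and lower in HEL cells with knockdown (KD) of DOT1L. The genes were chosen by the counts of those comparisons, which are therefore given below as a description with no test. DOT1L methylates lysine 79 of histone H3, and ENL (gene symbol MLLT1) is a reader of acylated histones that binds DOT1L. The 5 groups were K562 control, K562 labelled DOT1L-/-, K562 labelled ENL-/-, HEL control and HEL with DOT1L knockdown. No further allele or treatment is named in the labels, nor whether a knockout line is 1 clone or how the knockdown was made.

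MBNL proteins bind YGCY-type motifs through CCCH zinc fingers and control alternative splicing, polyadenylation and the placing of messenger RNA in the cell. CELF proteins bind UGU-rich RNA through RNA recognition motifs, oppose MBNL proteins at many exons and, in the cytoplasm, promote deadenylation and decay of messenger RNA. In the form of myotonic dystrophy caused by expanded CUG repeats, these repeats sequester MBNL proteins while CELF1 accumulates. In blood cells, MBNL1 takes part in splicing during erythroid maturation and CELF2 in splicing during T-cell activation. CELF6 is best known from the brain.

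K562 had 3 libraries for each knockout and 2 distinct controls, since the third control column repeated the second in every gene and was counted once. HEL had 2 control and 2 KD libraries. Total counts were 15404944 to 29236703 in K562 and 12151495 to 12811688 in HEL. The targeted transcripts were still counted. DOT1L fell from 263 to 182 CPM (counts divided by a TMM-adjusted library size) in the K562 DOT1L KO, a log2 change of -0.53 (SE 0.057, adjusted p 4.09e-06 in edgeR), and from 92.4 to 29.5 CPM in HEL (-1.64, SE 0.064, adjusted p 2.22e-28 in edgeR). MLLT1 fell from 216 to 154 CPM in the ENL KO (-0.48, SE 0.051, adjusted p 5.26e-06 in edgeR). A lane is named for the K562 controls and DOT1L KO but not for the ENL KO, so a batch and the ENL KO cannot be told apart. Nothing in the labels says that replicates were separate cultures, so p-values measure the spread between these libraries, which may be technical.

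The genes are spread over 6 chromosomes (GRCh38, positions as the tables list them). MBNL1 (chromosome 3, 152268468 to 152465780, plus strand), MBNL2 (chromosome 13, 97222289 to 97394120, plus strand) and MBNL3 (chromosome X, 132369315 to 132489968, minus strand) have exonic lengths of 6514, 4735 and 11843 bases. CELF1 (chromosome 11, 47465933 to 47553240, minus strand), CELF2 (chromosome 10, 10462515 to 11336673, plus strand) and CELF6 (chromosome 15, 72284727 to 72320184, minus strand) have exonic lengths of 9279, 11469 and 3575 bases. CELF2 is the longest of the 6, with a span of 874 kb, 38 listed exons and 10 start sites in the RefSeq promoter table, against 121 kb, 14 exons and 4 start sites for MBNL3. Exons of MBNL1 overlap those of the antisense gene MBNL1-AS1, and the other 5 genes share no exon position with another listed gene.

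MBNL3 and CELF2 are shown by the 250 bases before their outermost RefSeq start, because their counts differed most between the groups. Capitals mark matches, on either strand, to the core motifs of GATA (GATAA), RUNX (TGTGGT) and ETS (CCGGAAG) factors, the E-box CACGTG and the GC box GGGCGG. The sequences are from RefSeq on GRCh38.p14 and are written 5' to 3' on the strand of the gene: chrX:132490036-132490285, minus strand, for MBNL3 and chr10:10462300-10462549, plus strand, for CELF2.
MBNL3: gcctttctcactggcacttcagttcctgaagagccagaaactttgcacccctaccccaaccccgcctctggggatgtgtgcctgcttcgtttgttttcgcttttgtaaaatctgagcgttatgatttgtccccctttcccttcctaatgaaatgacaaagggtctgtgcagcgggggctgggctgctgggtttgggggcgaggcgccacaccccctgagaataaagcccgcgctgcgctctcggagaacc
CELF2: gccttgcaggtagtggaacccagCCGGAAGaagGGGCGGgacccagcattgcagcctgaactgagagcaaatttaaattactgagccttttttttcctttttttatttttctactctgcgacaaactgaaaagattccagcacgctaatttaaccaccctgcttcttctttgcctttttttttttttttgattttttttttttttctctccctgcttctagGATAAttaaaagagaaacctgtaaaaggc
The CELF2 window held 1 GATAA, 1 CCGGAAG and 1 GGGCGG match, and the MBNL3 window held none of the 5 motifs. RefSeq starts and counted exons differ in position. The first counted exon of CELF2 starts at 10462515, inside its window, and the GATAA match lies in that exon. For MBNL3 the first counted exon begins at 132489968, past the end of its window. Over all start sites, GATAA was in 2 of the 10 CELF2 windows and 0 of the 4 MBNL3 windows, and was in 20.4% of 35116 RefSeq windows of the same length. The other shares over those windows were 11.0% for TGTGGT, 8.52% for CCGGAAG, 6.34% for CACGTG and 42.6% for GGGCGG. The gene counts do not show which start site was used, and a match is not a measured binding site.

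Loss of ENL in K562 was the comparison with a control that did not choose the genes, although it shares its control libraries with the DOT1L KO. CELF2 rose 6.00-fold, MBNL3 fell to near the detection limit, CELF1 fell slightly, and MBNL1 and MBNL2 did not pass the test. Of the 6 genes, 5 had enough counts to be tested, and 3 passed an adjusted p of 0.05, 1 higher and 2 lower. Over all 14301 genes tested, 41.0% passed, 18.8% higher and 22.2% lower. The groups did not overlap for the same 3 genes, beside 59.6% of all genes. The median log2 fold change was -0.02 over the 5 genes and 0.00 over all genes.

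CELF2 had 13.5 and 15.4 CPM in the K562 controls and 78.2, 89.9 and 91.9 CPM in the ENL KO. Each KO library lay far above each control library. The log2 change was 2.59 (SE 0.096, Benjamini-Hochberg adjusted p 2.60e-10 in the quasi-likelihood test of edgeR), a 6.00-fold rise with a 95% interval of 5.20 to 6.93. It was the 116th highest fold change of all genes tested. The rise rested on 290 and 325 fragments in the controls and 1411 to 1847 in the KO.

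MBNL3, the X-linked muscleblind gene, was low in K562 controls, at 3.67 and 5.06 CPM (79 and 107 fragments). In the ENL KO it had 0.241, 0.632 and 0.195 CPM, from 5, 13 and 3 fragments. The KO libraries all lay below the controls, and the third was at the level of 3 counts, the limit that a count of 0 allows. The log2 change was -3.54 (SE 0.32, adjusted p 1.23e-06 in edgeR), the 195th lowest of all genes tested. From the summed counts of 21 and 186 the level was 11.8-fold lower, with an exact interval of 7.47 to 19.4 that covers counting error only. The size depended on ENL KO library 2: without it, the log2 change was -4.27.

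CELF1, the most abundant CELF gene of K562, fell from 281.4 and 281.9 CPM to 231, 228 and 229 CPM in the ENL KO. Its groups did not overlap, and the log2 change was -0.30 (SE 0.048, adjusted p 0.000255 in edgeR). MBNL1 had 339 and 370 CPM in the controls and 322, 381 and 380 CPM in the ENL KO. The groups overlapped and the 95% interval of the fold was 0.908 to 1.14 (adjusted p 0.807 in edgeR). MBNL2 likewise overlapped, at 36.9 and 39.1 CPM against 31.8, 38.6 and 42.3 CPM, with an interval of 0.816 to 1.19 (adjusted p 0.912 in edgeR).

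**Figure D1:**
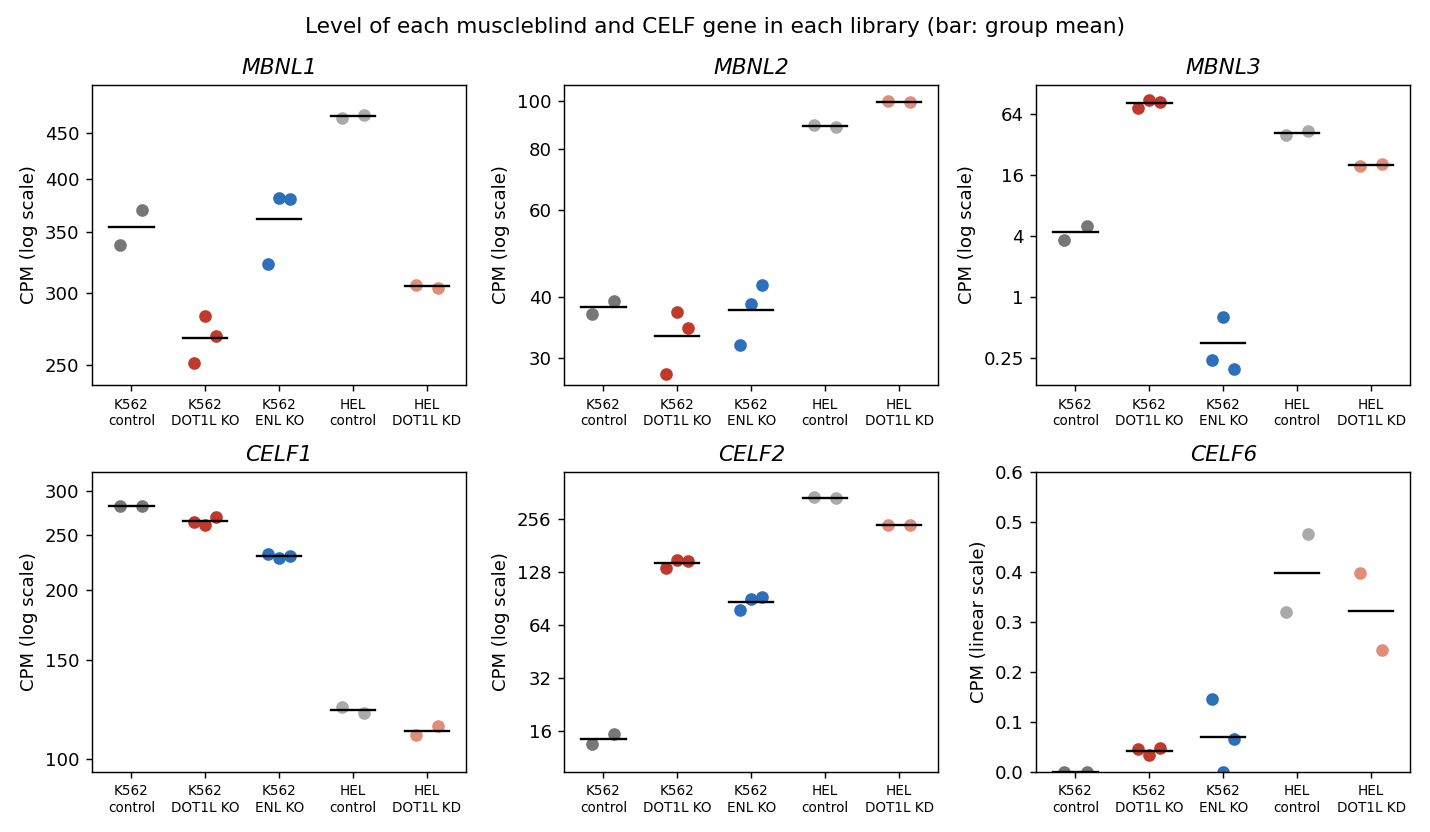
Each panel plots 1 gene in CPM (log axis, linear for CELF6) in the 12 distinct libraries of the 5 groups; points are libraries and bars are group means. MBNL3 runs from 0.195 CPM in an ENL KO library to 88.0 CPM in a DOT1L KO library, whereas CELF2 is above its K562 controls in both knockouts.

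In the K562 DOT1L KO, a comparison that chose the genes, CELF2 had 135, 149.7 and 148 CPM, against 13.5 and 15.4 CPM in the same controls. The groups were far apart, with a log2 change of 3.32 (SE 0.096) or 10.0-fold. MBNL3 had 72.7, 88.0 and 84.4 CPM, from 1600 to 2606 fragments, against 3.67 and 5.06 CPM. That was a log2 change of 4.23 (SE 0.16), or 18.7-fold. MBNL3 was thus above the controls in each DOT1L KO library and below them in each ENL KO library, while CELF2 was above them in both. Set directly against the ENL KO, the DOT1L KO had a log2 change of 7.76 (SE 0.20) for MBNL3 and 0.74 (SE 0.070) for CELF2. The groups did not overlap for 4 of the 5 genes, MBNL2 being the exception, beside 63.3% of all genes, and 60.2% of all genes had an adjusted p under 0.05 in edgeR. For the members the difference between the knockouts was not tested, because the DOT1L KO libraries chose the genes.

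The other 3 genes differed less in the DOT1L KO. MBNL1 was lower than in the controls, at 251, 283 and 269 CPM, with no overlap and a log2 change of -0.40 (SE 0.077). CELF1 was at 264, 261 and 270 CPM, also below both controls, with a log2 change of -0.09 (SE 0.048). MBNL2 was at 27.8, 37.2 and 34.4 CPM and overlapped the controls, with a log2 change of -0.19 (SE 0.13). The groups did not overlap for 4 of the 5 genes that could be tested, and for 68.1% of all genes. This contrast chose the genes, so the count is a description.

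In HEL the starting levels were different. CELF2 went from 337.6 and 336.8 CPM in control libraries to 235.05 and 235.2 CPM with the KD, a log2 change of -0.52 (SE 0.033). MBNL3 went from 39.4 and 43.2 CPM to 19.7 and 20.6 CPM, a log2 change of -1.03 (SE 0.083). Both genes were thus lower in each KD library than in each control library. MBNL1 was lower as well, at 306 and 304 CPM against 468 and 470 CPM, with a log2 change of -0.62 (SE 0.031). CELF1 was at 110.3 and 114 CPM against 124 and 121 CPM (-0.12, SE 0.044). MBNL2 alone of the 5 genes was higher, at 100.04 and 99.7 CPM against 89.4 and 88.7 CPM (0.17, SE 0.047). The groups did not overlap for 5 of 5 genes, beside 75.9% of all genes tested in HEL. This contrast also chose the genes.

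The response to DOT1L loss, K562 minus HEL, differed by a log2 change of 5.24 (SE 0.16) for MBNL3 and 3.83 (SE 0.092) for CELF2 in a joint fit. It was 0.20 for MBNL1, -0.37 for MBNL2 and 0.02 for CELF1. These differences are given with no test, since they chose the genes. Over all 15367 genes of the joint fit, 38.9% differed between the lines at an adjusted p under 0.05 in edgeR. The cell line goes together with knockout against knockdown and with fragment against read counting, so these cannot be told apart.

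**Figure D2:**
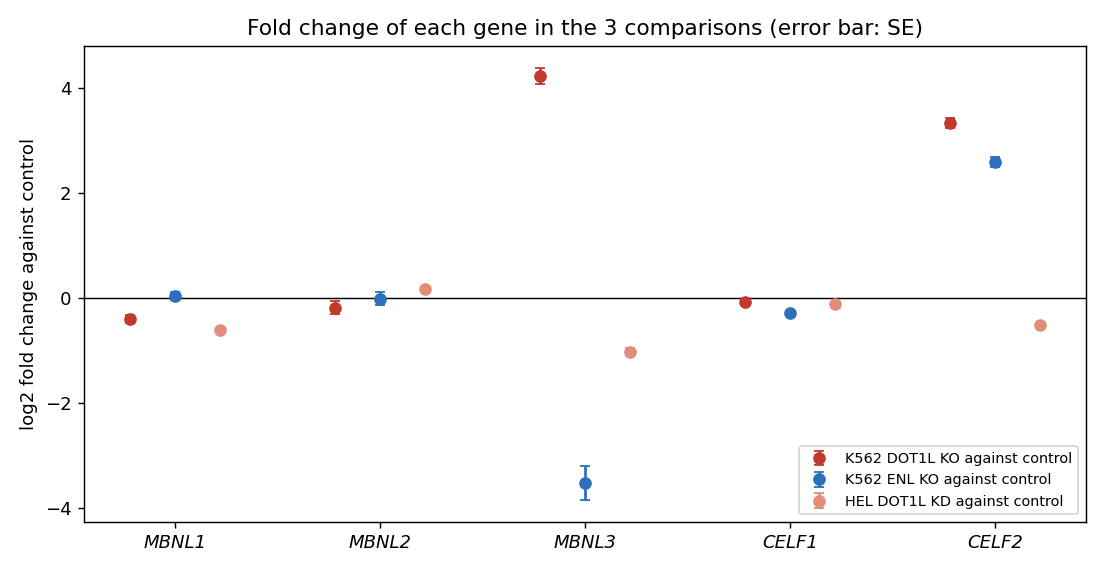
The plot gives the log2 fold change against control (vertical axis) of the 5 tested genes in the K562 DOT1L KO, K562 ENL KO and HEL DOT1L KD; error bars are standard errors. MBNL3 is at 4.23, -3.54 and -1.03 and CELF2 at 3.32, 2.59 and -0.52, while MBNL1, MBNL2 and CELF1 are within 0.62 of 0.

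CELF6 was at the edge of detection. It had 0 fragments in both K562 controls, which allows up to 0.142 CPM, and 0 to 3 in the knockout libraries. In HEL it had 4 and 6 reads without the KD and 5 and 3 with it. It passed the filter on low counts in neither table, so no fold is given.

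The order of the groups differed between genes, with the caution that HEL and K562 come from separate tables that were scaled separately. For CELF2 it was HEL control, HEL KD, K562 DOT1L KO, K562 ENL KO and K562 control, from high to low, with no overlap between neighbours. For MBNL3 it was K562 DOT1L KO, HEL control, HEL KD, K562 control and K562 ENL KO, again with no overlap. MBNL1 was highest in HEL controls and lowest in the K562 DOT1L KO, and its K562 control and ENL KO overlapped. CELF1 ran from K562 control down through DOT1L KO and ENL KO to HEL control and HEL KD with no overlap. MBNL2 was higher in all HEL libraries than in any K562 library, and its 3 K562 groups overlapped. Library 1 was the lowest of its group for MBNL1, MBNL2 and CELF2 in each of the 3 K562 groups.

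Levels were compared between genes only as CPM per kilobase of exonic length. On this scale MBNL1 led in each group. K562 controls had 54.4 CPM per kb of MBNL1, 30.4 of CELF1, 8.03 of MBNL2, 1.26 of CELF2 and 0.369 of MBNL3. In HEL controls the order was MBNL1 at 72.0, CELF2 at 29.4, MBNL2 at 18.8, CELF1 at 13.2 and MBNL3 at 3.49 CPM per kb. CELF1 was therefore the main CELF gene of K562 and CELF2 that of HEL.

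The make-up of each family followed these levels. The CELF family here means CELF1, CELF2 and CELF6. CELF3, CELF4 and CELF5 were left out of its sum, with CELF5 at 0.232 CPM per kb in K562 controls and CELF3 at 0.206 in the HEL KD. MBNL3 made up 0.584% of the summed MBNL signal in K562 controls, 12.5% ± 0.342 (SD, n = 3) in the DOT1L KO and 0.0469% ± 0.0292 (SD, n = 3) in the ENL KO. It made up 3.70% in HEL controls and 2.45% in the KD. MBNL1 still made up most of the family, from 67.2% in the HEL KD to 87.5% in the ENL KO. CELF2 made up 3.98% of the CELF signal in K562 controls, 30.6% ± 1.24 (SD, n = 3) in the DOT1L KO and 23.4% ± 1.66 (SD, n = 3) in the ENL KO. In HEL its share was 68.8% in the controls and 62.7% in the KD. These shares rest on the exonic length of all listed exons, and a change of isoform would alter them.

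The sum over each family was set beside these shares. Summed MBNL signal was 62.8 ± 3.76 CPM per kb (SD, n = 2) in K562 controls, 55.0 ± 4.16 (SD, n = 3) in the DOT1L KO and 63.4 ± 6.25 (SD, n = 3) in the ENL KO. In HEL it was 94.3 ± 0.426 in the controls and 69.6 ± 0.243 in the KD (SD, n = 2 each), with MBNL1 giving most of the difference. Summed CELF signal was 31.6, 41.1 and 32.3 CPM per kb in K562 control, DOT1L KO and ENL KO. It was 42.7 CPM per kb in HEL controls and 32.7 in the KD. In the ENL KO, where the sum was near that of the controls, CELF2 was higher and CELF1 lower.

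**Figure D3:**
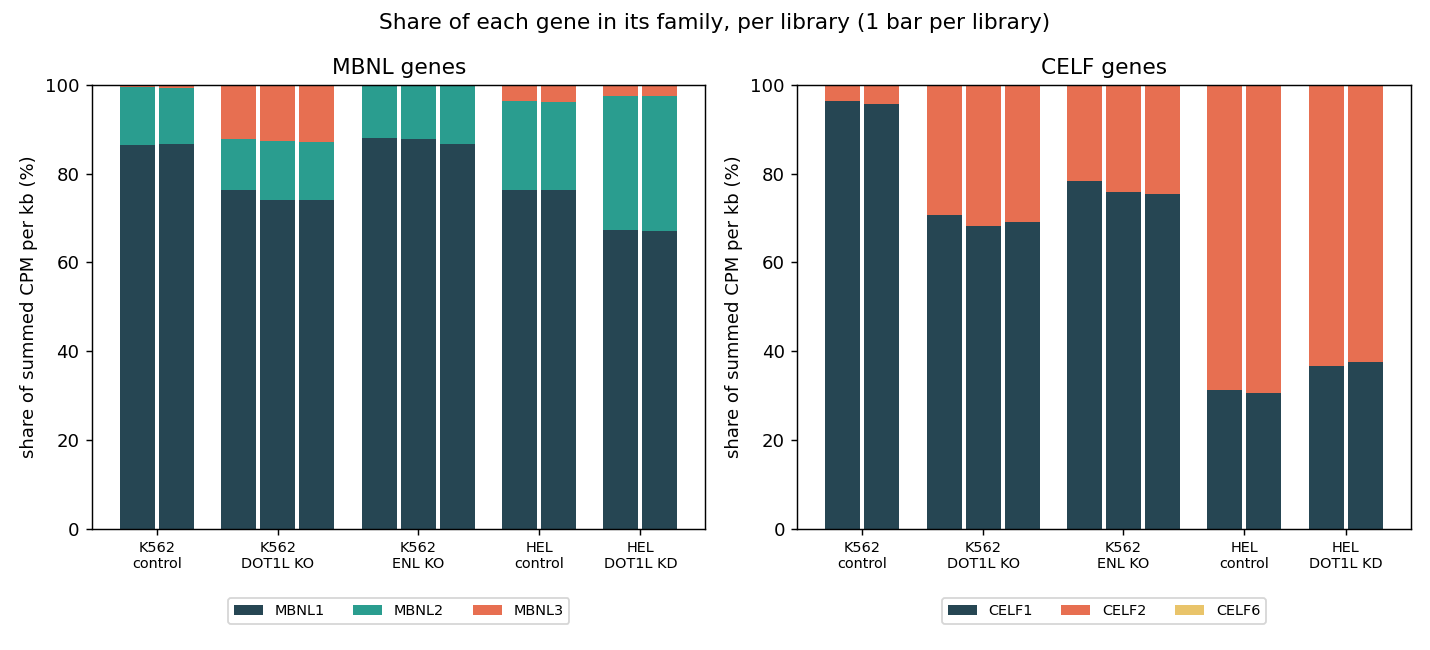
Each bar is 1 library. Its parts give the share (%) of each gene in the summed CPM per kb of the MBNL genes (left) or of CELF1, CELF2 and CELF6 (right). The MBNL3 part is 12.5% on average in the K562 DOT1L KO and 0.0469% in the ENL KO, and the CELF2 part is 68.8% in HEL controls against 3.98% in K562 controls.

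The other CELF genes were nearly silent. CELF5 had 24 to 28 fragments in K562 controls and fell to 10 or 11 in the ENL KO (log2 change -1.10, SE 0.35, adjusted p 0.0219 in edgeR). CELF3 rose in the HEL KD, from 2 reads in each control to 14 and 16 (log2 change 2.85, SE 0.60, adjusted p 5.96e-05 in edgeR). CELF4 had at most 8 fragments in K562 and 0 reads in HEL. MBNL1-AS1 had 4 to 33 counts a library, against 3737 to 8384 for MBNL1. The use of strand in counting is not given in the sources used here, so counts of overlapping antisense genes may be mixed.

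Genes with profiles most like those of CELF2 and MBNL3 were sought by Pearson's r over the 12 distinct libraries, each gene centred on the controls of its line, among 9318 genes. The measure is a description over libraries that share controls. CELF2 was most like MTCL1 (r = 0.997), a microtubule cross-linking factor, then SAMD9 (0.996), an interferon-responsive restriction factor. In the order ENL KO, DOT1L KO and HEL KD, the log2 fold changes of MTCL1 were 2.53, 3.20 and -0.23. Those of SAMD9 were 1.58, 2.15 and -0.41. Both genes, like CELF2, were higher in both K562 knockouts and lower in the HEL KD.

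MBNL3 was most like TSPAN33 (r = 0.996), a tetraspanin, then TSC22D1 (0.995), a leucine-zipper protein induced by TGF-beta, and UBE2H (0.994), a ubiquitin-conjugating enzyme. TSPAN33 had log2 fold changes of -2.37, 2.60 and -0.51 in the same order, low in the ENL KO and high in the DOT1L KO like MBNL3. In the ENL KO it was near the detection limit, with 6, 7 and 6 fragments against 34 and 41 in the controls. The log2 fold changes of TSC22D1 were -0.47, 0.97 and -0.07, and the last turned to 0.0035 with upper-quartile scaling. UBE2H had -0.50, 0.74 and -0.12. CELF2 and MBNL3 themselves had r = 0.400.

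**Figure D4:**
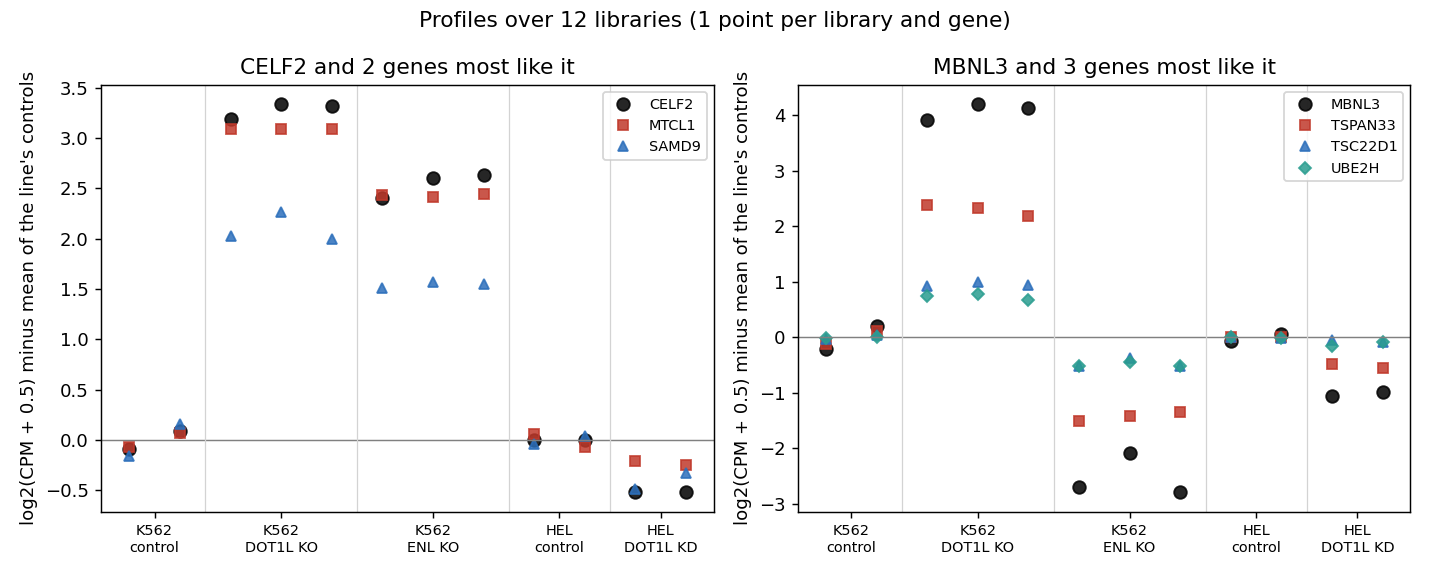
Points give log2(CPM + 0.5) minus the mean of the controls of the same line (vertical axis) in the 12 libraries (horizontal axis, by group) for CELF2 with the 2 genes named as most like it and MBNL3 with its 3. The CELF2 set lies above 0 in both knockouts, and the MBNL3 set lies above 0 in the DOT1L KO and below 0 in the ENL KO.

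Other splicing regulators were counted beside the 6 genes, from a list of 30 that includes the PTBP, RBFOX, ESRP, NOVA and KHDRBS families. In the ENL KO, 5 of 18 tested genes passed the test, 2 higher and 3 lower, a share of 27.8% against 41.0% of all genes. RBM47 fell (log2 change -0.91) and so did PTBP2 (-0.79), a neuronal polypyrimidine-tract binding protein, while RBPMS2 rose (0.57). In the DOT1L KO, 13 of 18 passed (72.2%), 5 higher and 8 lower, against 51.1% of all genes (26.9% higher and 24.2% lower). RBPMS2 (0.80) and SRRM3 (0.81), a microexon regulator, rose and RBM20 (-0.66), a titin splicing regulator, fell. Larger changes among the 13 were those of NOVA1 (4.96), ESRP1 (2.69) and KHDRBS3 (-1.20). These genes had group means of at most 0.915 CPM in that comparison, too low for naming. In the ENL KO, SRRM3 fell further than RBM47 or PTBP2 (-2.21, adjusted p 2.41e-05 in edgeR). There it went from 3.30 to 0.718 CPM, under the 5 CPM required for naming. In HEL, 11 of 14 passed (78.6%), 5 higher and 6 lower, against 55.0% of all genes (27.0% higher and 28.0% lower). There RBM20 (-0.81) and PTBP3 (-0.74) fell and ESRP1 (0.67), an epithelial splicing regulator, rose. With upper-quartile scaling, the higher share of all HEL genes that passed was 61.4% in place of 49.1%.

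Known RNA targets of MBNL and CELF proteins were counted from a list of 20 genes, by gene counts, which do not measure splicing. In the ENL KO, 8 of 15 tested targets passed (53.3%), all 8 lower, beside 41.0% of all genes and 22.2% lower, with a median log2 fold change of -0.31 over the 15 and 0.00 over all genes. Without K562 control 2, 5 passed. RYR1, the calcium release channel of skeletal muscle, fell from 53.7 ± 4.99 CPM (SD, n = 2) to 3.50 ± 0.452 CPM (SD, n = 3), a log2 change of -3.92 (SE 0.14, adjusted p 1.84e-10 in edgeR). The transcription factors FOXP1 (-0.49) and MEF2A (-0.34) also fell. Of the 8, CLCN1 (0.124 CPM in the KO against 0.400 in controls) and MAPT (0.0322 against 0.633 CPM) were near the detection limit. BIN1 was low as well, at 1.80 against 3.63 CPM. MEF2A no longer passed without K562 control 2.

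In the DOT1L KO, 9 of 15 targets passed, 5 higher and 4 lower, with a median of 0.09. That was a share of 60%, against 51.1% of all genes. RYR1 fell to 35.1 ± 4.87 CPM (SD, n = 3; log2 change -0.62). ATP2A1, a muscle calcium pump, rose (0.95), as did DMPK (0.50), the kinase whose repeat expands in that form of myotonic dystrophy. CLCN1 (2.60, from 0.400 to 2.45 CPM) and INSR (1.06, from 2.34 to 4.90 CPM) also passed and rose further. Both were under the 5 CPM required for naming, and CLCN1 was lower in the ENL KO. In HEL, 8 of 12 targets passed (66.7%, against 55.0% of all genes), 4 higher and 4 lower. DMPK rose there by 1.16 on the log2 scale, from 3.78 ± 1.20 CPM to 8.48 ± 0.0356 CPM (SD, n = 2 each). PKM, the pyruvate kinase gene, rose (0.46) and FOXP1 fell (-0.51).

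Deadenylation enzymes, which shorten poly(A) tails and with which CELF1 is known to act, were counted from a list of 15 genes. In the ENL KO, 7 of 15 passed (46.7%, against 41.0% of all genes), 5 higher and 2 lower. CNOT6L, a catalytic subunit of the CCR4-NOT complex, fell from 47.9 to 29.5 CPM (log2 change -0.70). CNOT10 (0.25) and PAN2 (0.24) rose. Leaving out any 1 of the libraries lowered the count. It was 4 without ENL KO 1, 5 without ENL KO 2 and 3 without ENL KO 3. CNOT10 no longer passed without control 1, and PAN2 no longer passed without either control or without ENL KO 1 or 3. In the DOT1L KO, 5 of 15 passed (33.3%, against 51.1%), 3 higher and 2 lower. CNOT6L was again at 29.4 CPM (-0.70), CNOT10 fell (-0.29) and PAN2 rose (0.48). In HEL, 7 of 14 passed (50.0%, against 55.0%), 2 higher and 5 lower, among them the catalytic subunits CNOT6 (-0.59), CNOT8 (-0.50) and CNOT7 (-0.42).

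**Figure D5:**
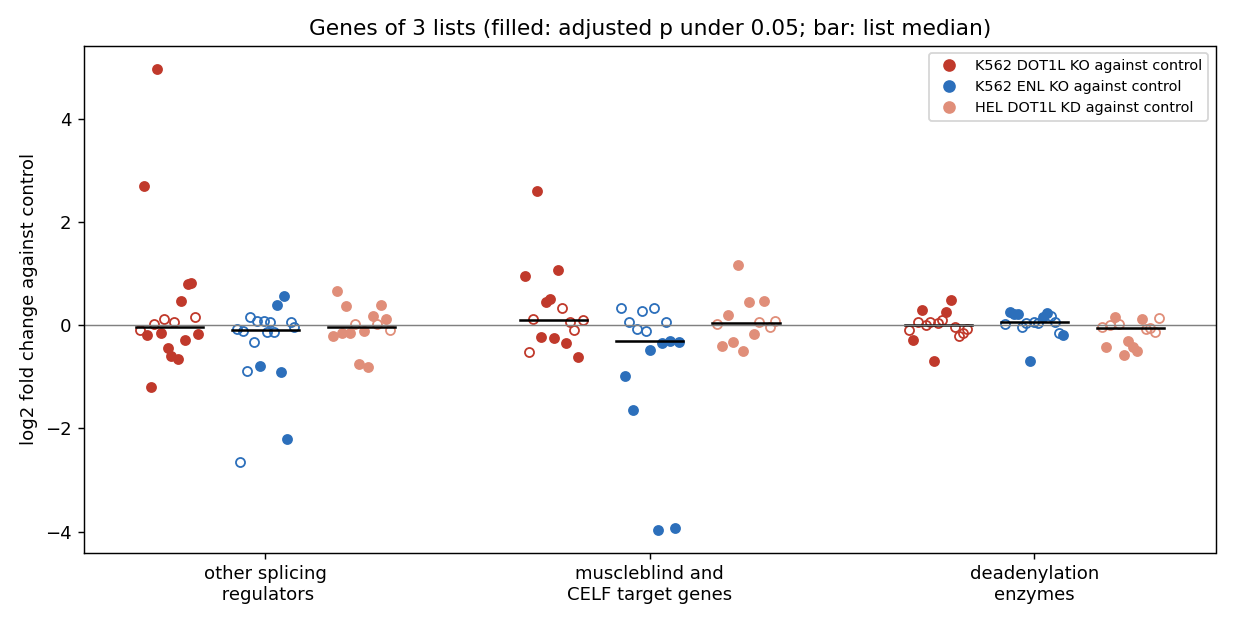
Each point is the log2 fold change against control (vertical axis) of 1 tested gene from 3 lists (horizontal axis) in the 3 comparisons; filled points have an adjusted p under 0.05 and bars are list medians. The target genes that passed in the ENL KO all lie below 0, with a list median of -0.31. CLCN1 and MAPT among them were near the detection limit.

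Cell type markers moved in the same libraries. All 10 erythroid markers had counts in each group. At an adjusted p under 0.05 in edgeR, 8 rose in the ENL KO, 10 in the DOT1L KO and 8 in the HEL KD, with none falling. Over all genes tested, 18.8%, 26.9% and 27.0% rose in the same order. HBG2 was the highest of the 10 markers in each group. Their summed level was 3003 to 3245 CPM in K562 controls, 5058 to 5367 in the DOT1L KO and 3827 to 4128 in the ENL KO, and went from 4447 to 4543 CPM in HEL controls to 6231 to 6912 in the KD. The megakaryocytic list of 8 genes summed to 7.34 to 9.93 CPM in K562 controls, where GP9, GP1BA, PF4 and VWF were among those at 0. It summed to 33.5 to 35.3 CPM in the DOT1L KO and 29.5 to 36.8 in the ENL KO. In HEL it went from 2617 to 2671 CPM down to 2077 to 2080 CPM. Only 2 of the 8 genes, ITGA2B and ITGB3, had enough counts to be tested in K562, and both rose in each knockout. In HEL, 5 of 7 tested fell and 2 rose at the same threshold, beside 28.0% and 27.0% of all genes.

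Markers of cell types outside these lineages were counted as well. The 6 myeloid markers, led by LYZ, summed to 34.7 to 37.8 CPM in K562 controls, 302 to 333 in the DOT1L KO and 19.9 to 20.9 in the ENL KO, which is also the order of MBNL3 in K562. In HEL they summed to 46.9 to 52.3 CPM in the controls and 49.2 to 51.7 in the KD, with MPO and ELANE at 0 in both. The 6 lymphoid markers, mostly CD3D, summed to 54.0 to 55.6 CPM in K562 controls, 17.3 to 21.8 in the DOT1L KO and 62.2 to 73.2 in the ENL KO, with MS4A1 at 0 in all of these. In HEL they reached at most 3.09 CPM. The 6 epithelial and stromal markers, mostly EPCAM, summed to 123 CPM in each K562 control, 91.7 to 101 in the DOT1L KO and 93.1 to 99.2 in the ENL KO, with KRT5 at 0, and to at most 1.28 CPM in HEL. The part of these markers in the values of the 6 genes was not tested. In bulk RNA, fewer cells of a type and less RNA per cell cannot be told apart.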

How the data were processed

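RNA-seq counts of 13 of the 74 samples were used, and the other 61 were not analysed here. The authors deposited whole, unscaled gene counts, fragment counts for K562 and read counts for HEL, per the file headers. The submitters' processing notes name HISAT2 2.1.0 and featureCounts 1.6.1, and the labels describe dUTP libraries of polyadenylated RNA. Of the 13 columns, 12 were distinct. In each table, genes were kept with filterByExpr (counts of at least 10, total at least 15; edgeR 4.0.16, R 4.3.3), which left 14301 in K562 and 12635 in HEL, and scaled with TMM. Groups were compared with glmQLFit and glmQLFTest, all K562 groups in 1 fit and HEL in another, without the replicate number. P-values were Benjamini-Hochberg adjusted over all genes tested, with a threshold of 0.05. Each SE was the absolute log2 fold change divided by the square root of the F statistic of glmQLFTest. An SE therefore carries that test, and for members in comparisons that chose the genes it is a description only. The response to DOT1L loss was compared between lines as an interaction in a joint fit. The code of the fit was run on simulated counts with the same spread for every gene of a table, a simpler setting than these data.

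The members, lists and rules were chosen with earlier results of these data known. Named from each list and comparison were up to 3 genes of largest absolute log2 fold change among those past the threshold, with a mean of at least 5 CPM in a group and no overlap. Named as well were the targeted genes, other CELF and antisense genes, and the 3 genes most like CELF2 and MBNL3 by Pearson's r of centred log2(CPM + 0.5), with a mean of at least 5 CPM in a group of each line. The floor of 3 counts was 0.101 to 0.195 CPM in K562 and 0.238 to 0.244 CPM in HEL and, like the exact intervals (95%, conditional binomial), covers counting error only. A gene that this rule names is not reported here. Symbols of all 6 members matched RefSeq. Alternatives were RLE, upper-quartile and library-size scaling, no filter, DESeq2 1.42.0, only the groups compared, a replicate block, identical columns counted separately, and leaving out each library.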

Additional observations from a re-analysis of the deposited data

Results flagged for a closer look

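The response to DOT1L loss differed between K562 and HEL for 11 of the 19 named list genes, tested as the interaction of line and depletion in edgeR with Benjamini-Hochberg adjustment over all genes. By the same test 38.9% of all 15367 genes differed, and the 19 were named for large changes in comparisons of which some enter this one, so the count is a description. Values are log2 fold changes in K562 minus those in HEL. The CCR4-NOT subunits CNOT6 (0.62, adjusted p 8.52e-06), CNOT8 (0.59, adjusted p 1.40e-05) and CNOT7 (0.44, adjusted p 0.000282) fell in HEL and did not pass in K562. PAN2 (0.53, adjusted p 0.000158) rose in K562 and did not pass in HEL. PKM (-0.57, adjusted p 2.67e-07) rose in HEL and did not pass in K562, and CNOT6L (-0.41, adjusted p 0.00252) fell in both, further in K562. These 6 kept an adjusted p under 0.05 under each alternative run.

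The other 5 lost it without a single library. RBPMS2 (0.39, adjusted p 0.00820) lost it without K562 control 1 and DMPK (-0.68, adjusted p 0.0119) without HEL control 2 (-0.39), while without HEL control 1 DMPK was at -1.05. ESRP1 (2.00, adjusted p 0.0203) had 6 and 0 fragments in the K562 controls and rests on them: it was 1.04 without control 2, where the call was lost, and 6.38 without control 1. It also lost the call without HEL control 1 or DOT1L KO 2. RYR1 (-0.61, adjusted p 0.0244) lost it without K562 control 1, HEL control 2 or either KD library. PTBP3 (0.28, adjusted p 0.0293) lost it without K562 control 1 or any HEL library. Line, knockout against knockdown and the kind of count cannot be told apart.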

How the results depend on the processing

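The count of members past the threshold in the ENL KO was 3 under each alternative. Leaving out 1 library at a time gave log2 fold changes in the ENL KO of 2.49 to 2.68 for CELF2, -4.27 to -3.28 for MBNL3 and -0.30 to -0.29 for CELF1. MBNL1 (-0.033 to 0.11) and MBNL2 (-0.11 to 0.087), neither of which passed, changed sign. The lists in the ENL KO gave 5 to 8 target genes and 2 to 5 deadenylation enzymes. TSC22D1 in HEL changed sign with upper-quartile scaling (0.0035). DESeq2 called 4561 genes in HEL, edgeR 6951, and leaving out libraries gave 4094 to 5658 genes in the ENL KO. Nothing in the labels says that a replicate number marks a shared batch. Deviations of the 7 same-numbered K562 pairs correlated by 0.053 to 0.22, all above 0 and 4 of them above 0.1. Those of the 14 other pairs correlated by -0.16 to 0.088. The pairs are not independent, since libraries were centred on their group mean and the 2 controls mirror each other. Control 2, whose column is repeated as control 3, had 0.060 with ENL KO 2 and 0.088 with ENL KO 3. With DOT1L KO 2 and 3 it had 0.10 and 0.050. Pairing in K562 was not settled, and the block stayed an alternative. With the replicate number as a block, 7021 genes passed in the ENL KO, 8340 in the DOT1L KO and 6903 in HEL, and 3 members passed in the ENL KO. It moved other splicing regulators from 5 to 7 and targets from 8 to 7 in the ENL KO, and deadenylation enzymes from 5 to 7 in the DOT1L KO. Across all alternatives, 924 values of single genes and all-gene counts were classed as the same, for single genes in direction and side of the threshold. Of the others, 35 lost the threshold, 3 gained it, 6 changed sign and 14 moved in size. Of the list and member counts, 116 were classed as the same and 5 as moved in size. That class does not mean unchanged. In the ENL KO, other splicing regulators went from 5 to 6 with identical columns counted separately and were classed as the same. With 2 or 3 libraries a group and 3 to 13 fragments in the ENL KO, the size of the MBNL3 fall is the least precise member value.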
